A study of Homo sapiens with 8 samples.

Results

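The genes of enzymes that remove the triggers of DNA sensing, or the messenger it produces, were examined by RNA sequencing of human lung tumours. They are 7 in number: ENPP1, SAMHD1, TREX1, DNASE2, RNASEH2A, RNASEH2B and RNASEH2C. They were chosen by gene symbol, for what they are known to do, with earlier results of these data known. All 7 symbols are among the 59050 gene symbols counted, and 5 of the 7 had enough counts to be tested. The tumours were xenografts in mice of H2122 cells, a long-established line from a human lung adenocarcinoma. There were 4 tumours of the parental line (genotype label WT) and 4 of SMARCA4 knockout cells, and all 8 came from the vehicle arm, so vehicle is shared by both groups. SMARCA4 is a catalytic ATPase subunit of SWI/SNF complexes, which move nucleosomes, and the series title ties its loss to STING signalling and anti-tumour immunity. The vehicle, the host strain, the age of the animals and whether the knockout line is 1 clone are not given in the sources used here. Nothing in the labels says how the tumours were spread over animals, so p-values measure the spread between these 8 samples. In bulk tumours fewer cells of a type and less RNA per cell cannot be told apart.

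When DNA appears in the cytosol, the enzyme cGAS binds it and makes the cyclic dinucleotide cGAMP, which activates STING and, through it, interferon genes. Several enzymes keep that alarm low. TREX1 is an exonuclease that degrades DNA in the cytosol, and DNASE2 is an acid endonuclease that digests DNA in lysosomes. RNase H2, a complex of a catalytic subunit (RNASEH2A) and the subunits RNASEH2B and RNASEH2C, removes ribonucleotides left in genomic DNA and cuts RNA in RNA-DNA hybrids. SAMHD1 hydrolyses deoxynucleoside triphosphates and acts at stalled replication forks. ENPP1 hydrolyses extracellular cGAMP, the messenger itself. Inherited defects of TREX1, SAMHD1 or the RNase H2 genes cause Aicardi-Goutieres syndrome, an inflammatory disease with high interferon.

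Of the 5 tested genes, ENPP1 and SAMHD1 were lower in knockout tumours, while DNASE2, RNASEH2B and RNASEH2C did not pass the threshold. In CPM, the reads of a gene per 1000000 counted reads after scaling between libraries, ENPP1 was at 47.4% of its parental mean and SAMHD1 at 76.5%. RNASEH2A, with 7 to 17 reads in each library, fell under the filter on low counts, and TREX1 had 0 reads in all 8. The gene models of both are covered by the exons of a neighbouring gene, wholly for TREX1 and almost wholly over the coding part of RNASEH2A. A gene was called changed at an adjusted p under 0.05 by edgeR's quasi-likelihood test, with Benjamini-Hochberg adjustment over 16219 genes. The 2 calls among 5 tested genes stand against 27.0% of all tested genes called, with 14.1% called lower and 13.0% called higher. The levels of the 2 groups did not overlap for the same 2 genes, both lower, against 29.3% of all tested genes, with 15.3% lower and 14.0% higher. The median log2 fold change of the 5 was -0.08, against 0.0034 over all tested genes.

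**Figure D1:**
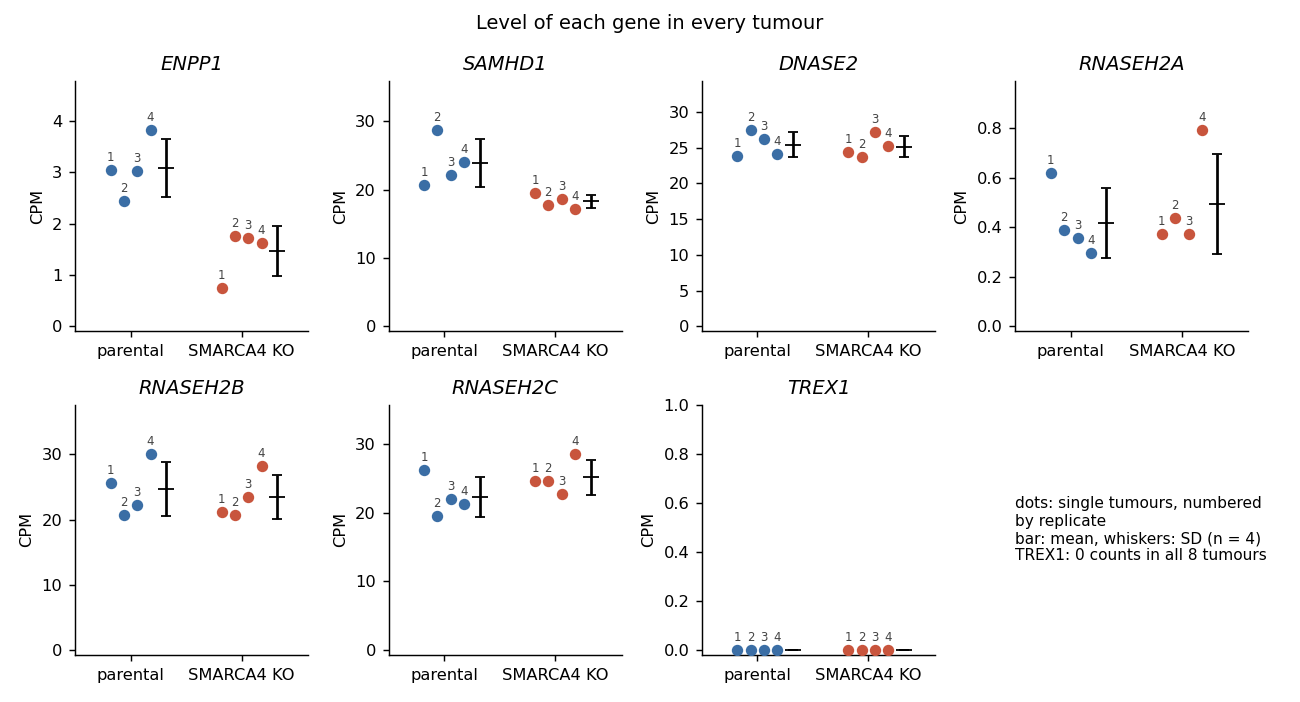
Level of each of the 7 genes in CPM (y axis, from 0) in single tumours, numbered by replicate, with the mean and SD of 4 tumours beside them. The knockout tumours lie below every parental tumour for ENPP1 and SAMHD1, the groups overlap for DNASE2 and the RNase H2 subunits, and TREX1 is at 0 throughout.

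The libraries held 19785922 to 23191698 gene counts in parental and 20662882 to 21981123 in knockout tumours. SMARCA4 lay between 198 and 235 CPM in the parental group and between 22.3 and 31.0 CPM in the knockout group, with no overlap, as the genotype labels have it. Carcinoma markers were abundant, with EPCAM, CDH1 and 4 keratins detected in both groups. The lung lineage genes NKX2-1 and SFTPC had 0 counts in all 8 libraries. Another lung marker, NAPSA, was detected, with 169 reads in all and no call (log2 fold change 0.23, edgeR adjusted p = 0.555). Of the keratins, KRT7 (log2 fold change -0.71, edgeR adjusted p = 0.000333) and KRT19 (-1.01, adjusted p = 8.49e-05) were lower in knockout tumours. All 12 leukocyte and macrophage markers had counts. Their summed level was 97.5 CPM in parental replicate 2 and 82.5 CPM in parental replicate 3, against 11.8 and 17.5 CPM in the other parental tumours and 16.8 to 36.5 CPM in knockout tumours. These markers had no call among 8 tested by edgeR's quasi-likelihood test, with 0 at an unadjusted p under 0.05 and 0 by DESeq2 or limma-voom. Of 4 tested fibroblast markers only LUM was called, and it was higher (5.00, edgeR adjusted p = 1.98e-06). COL1A1 (0.34, adjusted p = 0.456), COL1A2 (0.60, adjusted p = 0.385) and COL3A1 (-0.16, adjusted p = 0.853) had no call. Of 2 tested endothelial markers VWF was lower (-2.37, edgeR adjusted p = 0.000410), while PECAM1 had a positive estimate and no call (0.30, adjusted p = 0.504). The part of fibroblasts and endothelial cells in the results was not tested. Reads of the mouse host can be counted under human symbols where the sequences resemble each other.

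The starts of the genes were set side by side because the 2 called genes moved the same way. The sequences below are the bases before the RefSeq start on GRCh38.p14, read 5′ to 3′ on the strand of the gene. Those of ENPP1, DNASE2 and RNASEH2B end before the first GENCODE 29 exon. They come from RefSeq, and capitals mark matches to the GC box GGGCGG or the CCAAT box CCAAT on either strand. ENPP1 (chr6:131807770-131808015, plus strand) is shown as the gene with the larger change, DNASE2 (chr19:12881469-12881699, minus strand) and RNASEH2B (chr13:50909428-50909677, plus strand) as genes with no call. For SAMHD1 (chr20:36951736-36951763, minus strand) only the 28 bases with its CCAAT boxes are shown, which lie before the RefSeq start but inside the GENCODE gene, whose start is further upstream.
ENPP1: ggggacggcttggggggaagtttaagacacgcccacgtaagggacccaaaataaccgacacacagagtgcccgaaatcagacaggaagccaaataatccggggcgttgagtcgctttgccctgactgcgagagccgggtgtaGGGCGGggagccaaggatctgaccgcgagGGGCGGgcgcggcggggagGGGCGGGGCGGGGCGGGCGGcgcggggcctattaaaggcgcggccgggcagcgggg
SAMHD1: aggaggCCAATaggctgCCAATactcct
DNASE2: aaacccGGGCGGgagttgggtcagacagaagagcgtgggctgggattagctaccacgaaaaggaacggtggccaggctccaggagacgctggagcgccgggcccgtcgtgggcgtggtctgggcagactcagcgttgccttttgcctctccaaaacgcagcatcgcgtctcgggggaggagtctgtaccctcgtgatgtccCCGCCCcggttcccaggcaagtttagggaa
RNASEH2B: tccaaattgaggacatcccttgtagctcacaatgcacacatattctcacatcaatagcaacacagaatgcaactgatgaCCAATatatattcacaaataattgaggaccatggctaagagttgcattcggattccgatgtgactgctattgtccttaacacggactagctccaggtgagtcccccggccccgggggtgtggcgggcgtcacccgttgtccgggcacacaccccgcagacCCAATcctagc

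ENPP1 had 6 matches to the GC box between 108 and 46 bases before its start, some of which overlap each other, and no CCAAT box. SAMHD1 had 2 CCAAT boxes, 49 and 38 bases before its RefSeq start, and no GC box. In the 250 bases before the RefSeq start the called genes had neither element in common. The windows differ in kind, since most of the SAMHD1 window lies inside its GENCODE gene. Whether either element bears on the changes was not tested. DNASE2, which was not called, had 2 GC boxes, and RNASEH2B had 2 CCAAT boxes before the first of its 2 RefSeq starts. The window before its other start (ending at position 50909790) had 1 GC box, 1 CCAAT box and 69.2% G and C. The GC box was present in 42.3% and the CCAAT box in 33.0% of the windows of 27305 genes, so neither is rare. The AP-1 motif TGANTCA, the interferon motif (GAAA, any 2 bases, GAAA), the STAT motif TTCNNNGAA, TATAAA and the E2F motifs TTTCCCGC or TTTGGCGC, searched on both strands, were in none of the windows of the 7 genes. They were in 6.60%, 3.07%, 6.78%, 11.1% and 1.96% of all windows. G and C made up 68.8% of the ENPP1 window, 64.0% of the SAMHD1 window and 51.2% of the first RNASEH2B window, against a median of 58.0%. A match is a stretch of letters and not a measured binding site.

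ENPP1 (ENSG00000197594, chromosome 6, 131808016 to 131895155, plus strand, GENCODE 29 on GRCh38) is the main hydrolase of extracellular cGAMP and also makes pyrophosphate from ATP. It was at 3.05, 2.44, 3.03 and 3.82 CPM in parental replicates 1 to 4, from 59, 50, 68 and 90 reads. Knockout replicates 1 to 4 were at 0.746, 1.75, 1.72 and 1.63 CPM, from 16, 36, 37 and 35 reads. All 4 knockout tumours lay below all 4 parental tumours, with knockout replicate 1 the lowest and the other 3 close together. The means were 3.09 ± 0.567 and 1.46 ± 0.481 CPM (SD, n = 4 per group). The log2 fold change was -1.08 (SE 0.273, 95% interval -1.68 to -0.48, edgeR adjusted p = 0.0129), and the exact two-sided permutation p was 0.0286, the smallest that 4 against 4 tumours can give. Of all tested genes, 9.87% changed by more than ENPP1 in either direction. The call held under all 19 other analyses, with log2 fold changes from -1.24 to -0.86. ENPP1 shares 94 of its 9959 exonic bases with a pseudogene on the other strand, AL139805.1, which had 0 counts in all 8 libraries.

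SAMHD1 (ENSG00000101347, chromosome 20, 36889773 to 36951901, minus strand), the deoxynucleotide hydrolase, changed less and on more reads. Parental replicates 1 to 4 were at 20.6, 28.7, 22.1 and 24.1 CPM and knockout replicates 1 to 4 at 19.5, 17.8, 18.7 and 17.2 CPM. The groups did not overlap, but parental replicate 1 and knockout replicate 1 were separated by about 1 CPM. The parental mean was 23.9 ± 3.51 and the knockout mean 18.3 ± 1.01 CPM (SD, n = 4 per group), so the parental tumours also varied more. The log2 fold change was -0.39 (SE 0.115, 95% interval -0.64 to -0.13, edgeR adjusted p = 0.0275, exact permutation p = 0.0286). Changes of greater size were seen in 34.8% of tested genes. The call was lost without parental replicate 2 (-0.29, edgeR adjusted p = 0.0600), the tumour with the highest SAMHD1 and the highest leukocyte markers. Summed skeletal muscle markers (35.7 CPM, against 0.362 to 17.6 CPM elsewhere) were also highest in that tumour. So were summed fibroblast markers (606 CPM), with knockout replicate 3 close at 602 CPM. The part of skeletal muscle and fibroblasts in the SAMHD1 change was not tested. Leukocyte markers entered only as a covariate and through the tumours left out, both given below. The SAMHD1 call was also lost without knockout replicate 2 (-0.37, edgeR adjusted p = 0.0732), knockout replicate 3 (-0.40, adjusted p = 0.0600) or knockout replicate 4 (-0.36, adjusted p = 0.0659). With the mean log2 level of the leukocyte markers as a covariate the value was -0.35 (edgeR adjusted p = 0.0279). With parental replicates 2 and 3 both left out it was -0.30 (adjusted p = 0.0803). SAMHD1 shares 1159 of 11261 exonic bases with TLDC2 on the opposite strand, which rose from 1.02 ± 0.223 to 2.18 ± 0.192 CPM (SD, n = 4 per group; log2 fold change 1.08, edgeR adjusted p = 0.00403), in the direction opposite to SAMHD1. The strand setting is not stated, and how reads from the shared stretch were counted was not tested. Of 30 protein-coding genes wholly covered only when the opposite strand is counted too, 16.7% had 0 counts in all 8 libraries. Of 270 wholly covered on the same strand, 93.3% did.

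**Figure D2:**
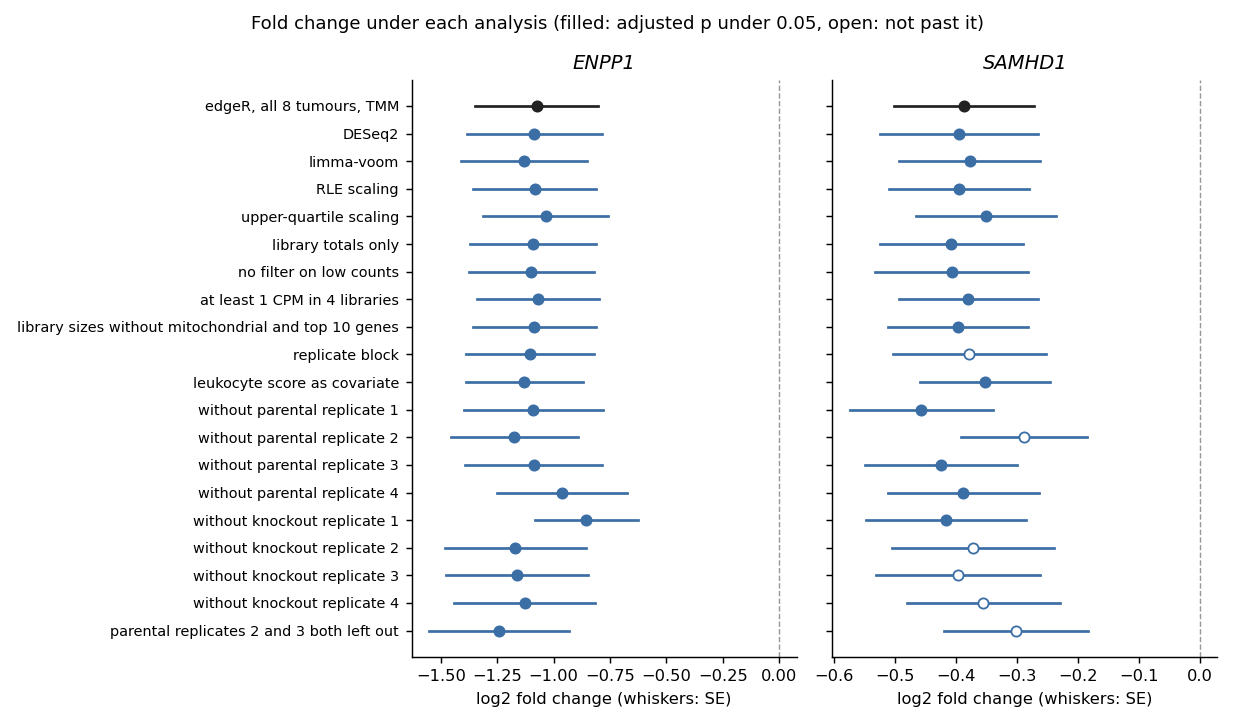
Log2 fold change of ENPP1 (left) and SAMHD1 (right), knockout over parental, on the x axis, for each analysis on the y axis; whiskers are the SE and filled points have an adjusted p under 0.05. ENPP1 is filled in every analysis shown, from -1.24 to -0.86, while SAMHD1 stays between -0.46 and -0.29 and is open in 6 of the 19 alternatives.

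DNASE2 (ENSG00000105612, chromosome 19, 12875211 to 12881468, minus strand), the lysosomal endonuclease, was nearly level across tumours. Parental replicates 1 to 4 were at 23.8, 27.4, 26.2 and 24.2 CPM and knockout replicates at 24.4, 23.7, 27.1 and 25.3 CPM. Of the 4 knockout values 3 fell within the parental range. The means were 25.4 ± 1.72 and 25.1 ± 1.47 CPM (SD, n = 4 per group), and the fold change on the log2 scale was -0.02 (SE 0.0903, edgeR adjusted p = 0.917). Its 95% interval of -0.21 to 0.18 leaves out a change of the size seen for ENPP1. The interval of SAMHD1 overlaps it, and the difference between the 2 genes was not tested. The sign of the DNASE2 value turned under upper-quartile scaling and in 4 other analyses, always within 0.06 of 0. DNASE2 shares 181 of 2389 exonic bases with the antisense RNA AC020934.2, which had at most 6 reads in a library.

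RNASEH2B (ENSG00000136104, chromosome 13, 50909678 to 51024120, plus strand), which links the RNase H2 complex to the replication clamp PCNA, had no call. Parental replicates 1 to 4 were at 25.6, 20.8, 22.2 and 30.1 CPM and knockout replicates at 21.2, 20.7, 23.5 and 28.2 CPM. Replicate 4 was the highest of its group in both, and the ranges nearly coincide. The means were 24.7 ± 4.15 and 23.4 ± 3.39 CPM (SD, n = 4 per group). The log2 fold change was -0.08 (SE 0.139, 95% interval -0.38 to 0.23, edgeR adjusted p = 0.732), and 0.03 without parental replicate 4. RNASEH2B shares 282 of its 26291 exonic bases with RNASEH2B-AS1 and 21 with GUCY1B2, both on the opposite strand.

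RNASEH2C (ENSG00000172922, chromosome 11, 65714005 to 65720947, minus strand), the small subunit that pairs with RNASEH2B, had the only positive estimate among the 5 tested genes, and it was not past the threshold. Parental replicates 1 to 4 were at 26.3, 19.5, 22.0 and 21.3 CPM and knockout replicates at 24.6, 24.6, 22.7 and 28.6 CPM. The parental values ran lower except for replicate 1, which lay above 3 of the 4 knockout tumours. The means were 22.3 ± 2.88 and 25.1 ± 2.48 CPM (SD, n = 4 per group), and the fold change on the log2 scale was 0.17 (SE 0.115, 95% interval -0.08 to 0.43, edgeR adjusted p = 0.295). RNASEH2C shares 1439 of 5101 exonic bases with KAT5 on the opposite strand, which had a log2 fold change of 0.09 (edgeR adjusted p = 0.474).

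RNASEH2A (ENSG00000104889, chromosome 19, 12806556 to 12815201, plus strand), the catalytic subunit, had few reads: 12, 8, 8 and 7 in the parental and 8, 9, 8 and 17 in the knockout replicates, in order. That was 0.297 to 0.621 CPM and 0.373 to 0.792 CPM, and 3 of 4 knockout values lay within the parental range. Pooled over libraries there were 35 parental and 42 knockout reads, a knockout-to-parental ratio of 1.20 with an exact 95% interval of 0.746 to 1.93 that covers counting error only. The CPM did not pass the exact permutation test (p = 0.543). RNASEH2A fell under the filter of 10 reads and received no adjusted p in the fit. With no filter its log2 fold change was 0.24 (edgeR adjusted p = 0.781). The direction rests on knockout replicate 4: without that tumour the log2 ratio of means was -0.08.

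The RNASEH2A counts do not measure the whole transcript. In GENCODE 29 its principal transcript has 2753 bases in 8 exons, of which 1123 are also exons of THSD8, a gene on the same strand. Of the 897 coding bases, 10 are free of THSD8 exons. Most of the free bases lie past the point where RefSeq ends the gene (chromosome 19, position 12813640), and 69 free bases lie before it. THSD8 itself had 0 or 1 reads in each library. In the default modes of htseq-count a read that overlaps 2 genes is set aside as ambiguous, and the mode used is not given in the sources used here.

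TREX1 (ENSG00000213689, chromosome 3, 48465811 to 48467645, plus strand) had 0 counts in all 8 libraries, in an annotation where none of its 1515 exonic bases is free of ATRIP, a gene on the same strand. This 0 allows up to 3 counts in a library, or 0.129 to 0.152 CPM, but only for reads given to TREX1 alone. It says nothing of how much TREX1 RNA the tumours held. ATRIP, which encodes the partner of the checkpoint kinase ATR, averaged 20.1 ± 3.06 CPM without the knockout and 17.8 ± 2.92 CPM with it (SD, n = 4 per group; log2 fold change -0.18, edgeR adjusted p = 0.392). Those reads come from the part of ATRIP that TREX1 does not cover if ambiguous reads were set aside. TREX1 is not alone in this. Of 270 protein-coding genes with no exonic base free of same-strand genes, 252 (93.3%) had 0 counts in all 8 libraries, against 12.4% of all 19705 protein-coding genes matched by symbol. Among 30 genes that are wholly covered only when the opposite strand is counted too, 5 (16.7%) were at 0. The annotation behind the counts is not stated, and 95.5% of its symbols are in GENCODE 29.

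**Figure D3:**
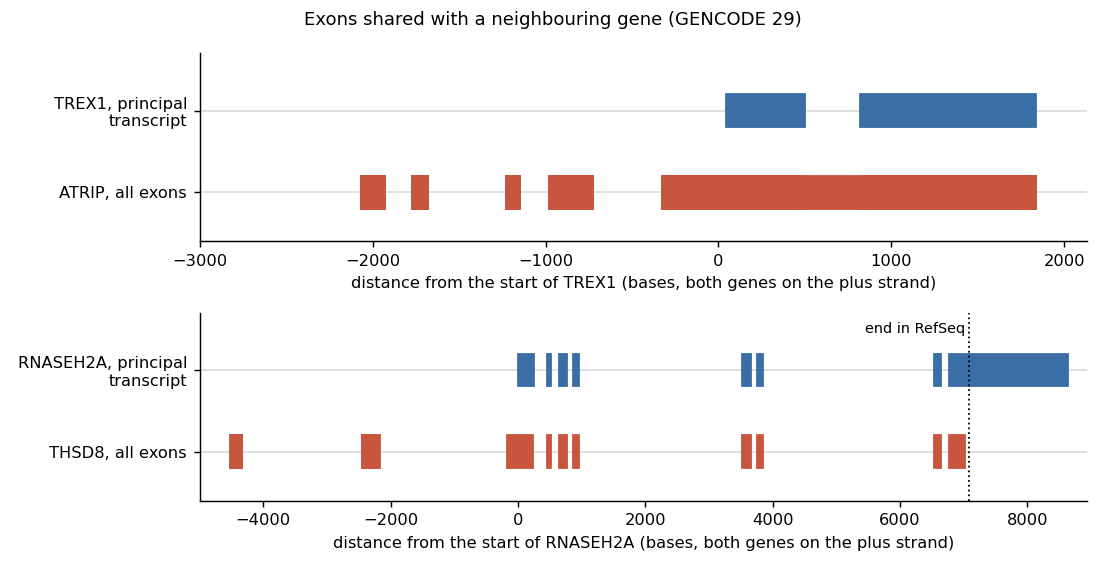
Exons of the principal transcripts of TREX1 (top) and RNASEH2A (bottom) above the exons, within the stretch drawn, of the same-strand neighbours ATRIP and THSD8, by distance in bases from the start of the gene. ATRIP covers every base of TREX1, and THSD8 covers RNASEH2A up to a stretch that lies almost wholly past the end of the gene in RefSeq (dotted line).

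The RNase H2 subunits were next compared within each tumour, since a ratio of 2 genes in 1 library does not depend on the scaling between libraries. The log2 ratio of RNASEH2C to RNASEH2B counts was 0.04, -0.09, -0.01 and -0.50 across the parental replicates, and 0.21, 0.25, -0.06 and 0.02 across the knockout replicates. Of the knockout tumours, 2 lay above all parental tumours and the others within their range. The means were -0.14 ± 0.244 and 0.11 ± 0.147 (SD, n = 4 per group), a difference of 0.25 that did not pass the exact two-sided permutation test (p = 0.143, 0.429 after adjustment over 3 ratios). The ratio of RNASEH2A to RNASEH2B was -5.85 ± 0.530 and -5.56 ± 0.343, and that of RNASEH2A to RNASEH2C -5.71 ± 0.320 and -5.67 ± 0.368 (SD, n = 4 per group). Neither differed by the exact permutation test (adjusted p = 0.686 and 0.857), and both rest on the few RNASEH2A reads.

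**Figure D4:**
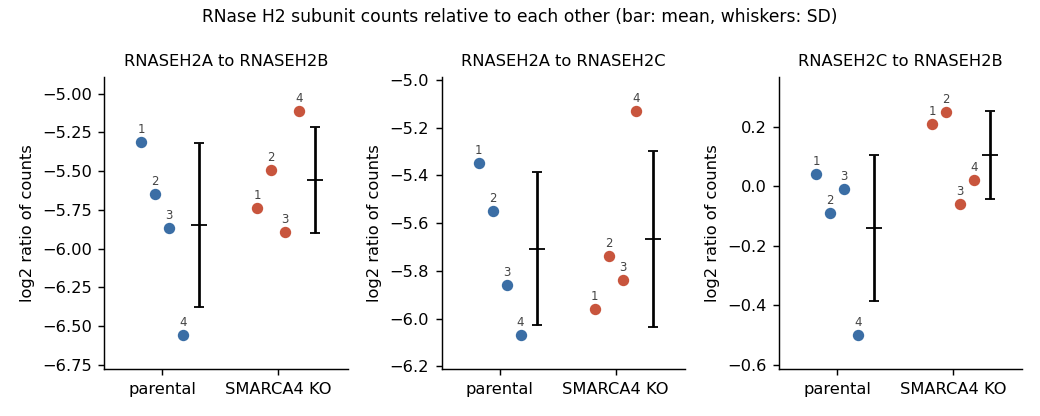
Log2 ratio of counts between pairs of RNase H2 subunits (y axis, 0.5 added to each count) in single tumours numbered by replicate, with the mean and SD of 4 tumours. The groups overlap in all 3 ratios, and the ratios with RNASEH2A are far below 0 because few reads were given to that gene.

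Levels were compared between genes per kilobase of the principal GENCODE 29 transcript. In parental tumours RNASEH2B was at 15.1 ± 2.55, DNASE2 at 13.0 ± 0.879, RNASEH2C at 7.97 ± 1.03, SAMHD1 at 4.51 ± 0.663 and ENPP1 at 0.415 ± 0.0762 CPM per kilobase (SD, n = 4 per group). In knockout tumours the same order gave 14.4 ± 2.08, 12.9 ± 0.752, 8.99 ± 0.889, 3.45 ± 0.191 and 0.197 ± 0.0646 CPM per kilobase. RNASEH2B and DNASE2 were neighbours that did not differ beyond their spread. The place of RNASEH2B rests on the 1629 bases of its principal transcript, while all its GENCODE 29 exons together cover 26291 bases. Levels per kilobase of that longer length were not computed. The place of RNASEH2C also depends on the length used. Per kilobase free of other genes' exons on either strand its means were 12.9 CPM (parental) and 14.6 CPM (knockout). DNASE2 was at 14.3 and 14.2 CPM by that length. ENPP1 was the lowest of the 5 tested genes on both scales.

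Genes with the most similar profile over the 8 tumours were listed for each tested gene by Pearson's r of log2 CPM, among 13049 genes. They were picked for a high r, so r only describes likeness. For ENPP1 they were PUDP (0.983), MCCC1 (0.978) and PIMREG (0.977), and for SAMHD1 they were PTPRB (0.985), URB1 (0.983) and TSG101 (0.983). RNASEH2B was closest to SNRPF (0.986), a splicing protein gene, KIF2C (0.982), a mitotic kinesin gene, and POC1A (0.982), a centriole protein gene. RNASEH2C was closest to LINC02561 (0.986), MT-TI (0.984) and HNRNPH1 (0.973). DNASE2, flat between the groups, was closest to the interferon-stimulated genes IFI44 (0.944) and IFIT1 (0.932) and to ZNF821 (0.930).

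Genes that act beside the members were counted from lists of their pathways. Each count is to be read beside all tested genes, of which 27.0% were called, 14.1% lower and 13.0% higher. In the ENPP family, 3 of 7 genes had enough counts, and ENPP1 was the only one called. ENPP4 had a log2 fold change of -0.32 (edgeR adjusted p = 0.0624) with groups that did not overlap, and ENPP5 had -0.14 (adjusted p = 0.481). ENPP3, which also cleaves cGAMP, had 1 to 3 reads in each library. SMPDL3A, another cGAMP-degrading enzyme, was at 7.17 ± 1.78 and 5.28 ± 1.19 CPM (SD, n = 4 per group; log2 fold change -0.44, edgeR adjusted p = 0.159).

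Around extracellular cGAMP and its products, 12 of 15 genes were tested, with 4 higher and 1 lower in knockout tumours and a median log2 fold change of 0.16. Over all tested genes 13.0% were called higher and 14.1% lower. The rises were ABCC1, a multidrug exporter that carries cGAMP out of cells, from 294 ± 25.5 to 510 ± 20.7 CPM (SD, n = 4 per group; log2 fold change 0.80, edgeR adjusted p = 5.24e-05), SLC46A3 (1.11, adjusted p = 0.000102), SLC46A1 (0.32, adjusted p = 0.0193) and NT5E (0.64, adjusted p = 0.0156). NT5E makes adenosine from AMP, one of the products of cGAMP hydrolysis by ENPP1. SLC19A1, the folate carrier that imports cyclic dinucleotides, fell from 81.5 ± 7.15 to 65.3 ± 8.02 CPM (SD, n = 4 per group; -0.32, edgeR adjusted p = 0.0418), with overlapping groups. 

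SAMHD1 consumes deoxynucleotides, and of 19 genes that make or salvage them 2 were higher and 1 lower, with a median log2 fold change of 0.03. The shares over all tested genes were 13.0% higher and 14.1% lower. CDA, cytidine deaminase, rose from 21.0 ± 1.87 to 61.8 ± 2.32 CPM (SD, n = 4 per group; log2 fold change 1.56, edgeR adjusted p = 9.32e-07). NT5M, a mitochondrial deoxyribonucleotidase, rose by 0.91 (adjusted p = 0.00108). The ribonucleotide reductase subunits, which supply the substrates of SAMHD1, had no call, with log2 fold changes of -0.10 for RRM1, -0.35 for RRM2 and 0.10 for RRM2B (edgeR adjusted p = 0.595, 0.244 and 0.561).

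None of 11 tested partners of RNase H2 in replication and ribonucleotide excision was called by edgeR's quasi-likelihood test, with 2 at an unadjusted p under 0.05, 2 called by DESeq2 and 0 by limma-voom. PCNA had a log2 fold change of 0.18 (edgeR adjusted p = 0.475) and RNASEH1, the other cellular RNase H, of -0.04 (adjusted p = 0.810). Among 32 cell cycle genes 1 was higher (CCNE1, 0.77, edgeR adjusted p = 0.0143) and 1 lower (CDT1, -0.40, 0.0428), with a median log2 fold change of -0.12. By the same edgeR test 27.0% of all tested genes were called.

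A list of other nucleases and hydrolases, which also holds genes of other kinds such as ATRIP, BANF1 and LSM11, had 21 tested genes. Of these 1 was called, against 27.0% of all tested genes. That was PLD3, a lysosomal exonuclease of single-stranded nucleic acid, which fell from 182 ± 23.7 to 126 ± 5.84 CPM (SD, n = 4 per group; log2 fold change -0.53, edgeR adjusted p = 0.00232). None was higher by edgeR, with 4 higher at an unadjusted p under 0.05 and 0 by DESeq2 or limma-voom. TREX2 (-0.54, edgeR adjusted p = 0.317) had no call, and DNASE2B had 1 read in all 8 libraries. Among 15 lysosomal genes, the compartment of DNASE2, CTSL (0.85, edgeR adjusted p = 2.06e-05) and NPC2 (1.05, adjusted p = 0.000110) rose while CTSB (-0.53, adjusted p = 0.00167) and CTSD (-0.77, adjusted p = 6.26e-05) fell, around a median of -0.05. These 4 calls are near the 27.0% of all tested genes.

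The sensing arm that these enzymes restrain had 12 of 17 listed genes tested, with 3 lower: IFI16 (-3.07, edgeR adjusted p = 1.17e-06), TMEM173, which encodes STING (-1.69, adjusted p = 9.05e-05), and IKBKE (-0.79, adjusted p = 0.00558). None was higher. Over all tested genes 27.0% were called, 14.1% of them all as lower. CGAS, which makes the cGAMP that ENPP1 hydrolyses, had 17 parental and 5 knockout reads in all. Of the 17, parental replicates 2 and 3, the tumours with the highest leukocyte markers, held 7 each, and the part of those cells in this was not tested.

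**Figure D5:**
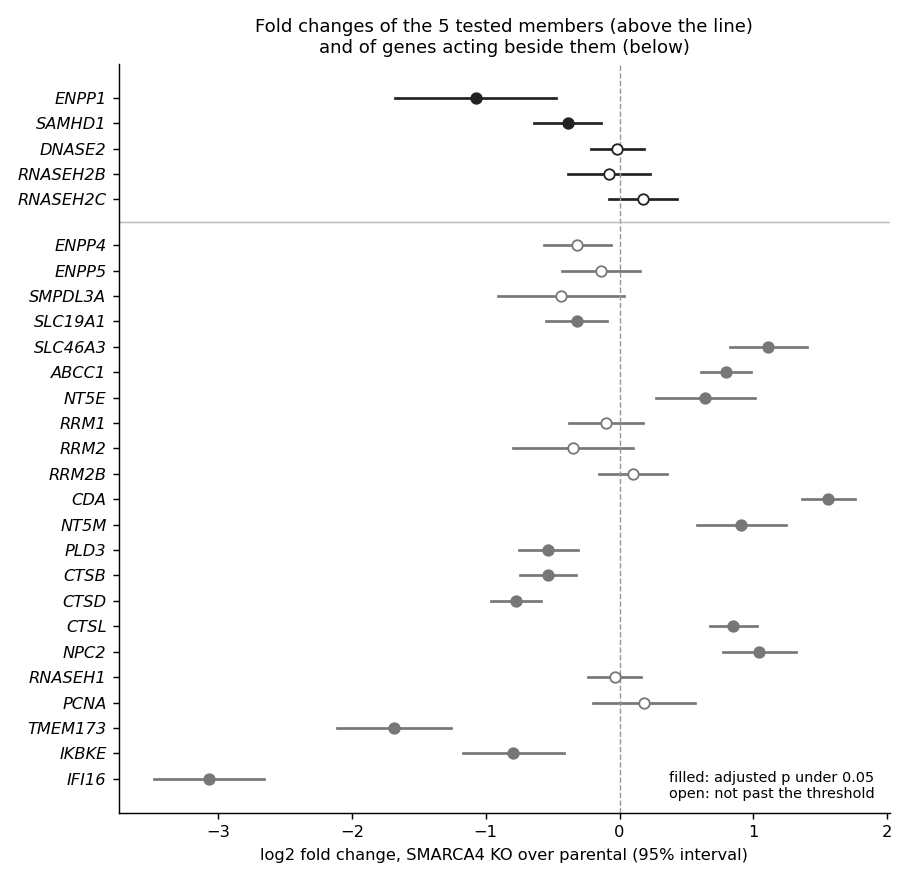
Log2 fold change, SMARCA4 knockout over parental, with 95% intervals (x axis) of the 5 tested members above the line and of named genes from the pathway lists below it; filled points have an adjusted p under 0.05. ENPP1 and SAMHD1 lie below 0, the other 3 members straddle 0, and ABCC1, NT5E and CDA lie above it.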

How the data were processed

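Total RNA of 8 tumours was sequenced, with 1 file per tumour and no pooling. The authors deposited whole-number counts of reads for each gene symbol, not normalized, written as htseq-count writes them. The submitters' processing notes name TopHat2 2.1.1, HTSeq 0.11.0 and hg38. The annotation, the counting mode, the strand setting and any removal of mouse reads are not given in the sources used here. The 5 summary lines entered neither the library sizes nor the tests (ambiguous reads 3.98% to 4.31%, reads in no feature 6.08% to 10.4%).

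Genes were filtered with filterByExpr (minimum count 10, minimum total 15), scaled by TMM and compared with edgeR 4.0.16 in R 4.3.3, with no covariate. CPM are counts over the TMM-scaled library total. The code was tested on simulated data. Single values and ratios were compared by exact two-sided permutation tests in scipy 1.17.1. DESeq2 1.42.0, limma-voom 3.58.1, other scalings, filters, covariates and left-out tumours were alternatives. Exon overlaps use GENCODE 29, and promoter windows the RefSeq table on GRCh38.p14. The members, lists and tests were chosen with earlier results of these data known. All 7 members are named, as are SMARCA4, fixed partners of the members, the called list genes with the smallest p (up to 4 a list) and the 3 most similar genes of each tested member. Of the called list genes, 1 is counted but not reported here by name. The overlapping neighbours TLDC2, KAT5, THSD8, AC020934.2 and AL139805.1 were named after their values were seen.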

Additional observations from a re-analysis of the deposited data

Results flagged for a closer look

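In 12 sets of 4 values (6 genes with counts, 2 groups each), the highest or lowest tumour stood apart from the other 3 in 2 sets; chance gives about 5% of sets. In knockout replicate 1 the ENPP1 level was 0.746 CPM, below the 1.63 to 1.75 CPM of its group, and without that tumour the log2 fold change was -0.86 (edgeR adjusted p = 0.0240). In knockout replicate 4 the RNASEH2A level was 0.792 CPM, from 17 reads, above the 0.373 to 0.438 CPM of its group.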

How the results depend on the processing

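The number of called genes ran from 3501 to 5254 over 19 alternatives, against 4385. ENPP1 kept its call in all 19. SAMHD1 kept its sign in all 19 and its call in 13; it had no call with parental replicates 2 and 3 both left out (-0.30, chosen after seeing the data), and leaving out 1 tumour gave -0.46 to -0.29. Replicate numbers are the rep numbers of the sample titles, and the tumour name of parental replicate 4 carries another number. Tumours of the same replicate number did not deviate together (r from -0.187 to 0.0863). No parental tumour was closest to the knockout tumour of its own number, though knockout replicate 4 was closest to parental replicate 4. The numbers were therefore not taken to pair tumours. With the replicate number as a block 3871 genes were called and SAMHD1 had -0.38 (edgeR adjusted p = 0.0628). DNASE2 turned sign with upper-quartile scaling (0.02), the leukocyte covariate (0.01) and both parental tumours left out (0.06), with no call. Leaving out 1 tumour gave -0.05 to 0.02 for DNASE2, -0.17 to 0.03 for RNASEH2B, 0.11 to 0.25 for RNASEH2C, -0.08 to 0.51 for the RNASEH2A ratio of means and -0.14 to 0.16 for the change in RNASEH2A to RNASEH2C, with no call. The cause of these shifts was not tested. RNASEH2A was recomputed with library totals (0.24), with no filter (0.24), with parental replicates 2 and 3 both left out (0.13, edgeR adjusted p = 0.866) and with 1 tumour left out. The other analyses gave it no value, and TREX1 had none in any. The few RNASEH2A reads limit the precision of its ratios.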
